A study of Mus musculus with 4 samples.

Results

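Somatostatin, ghrelin and 7 further genes that mark the islet cells making or sensing these hormones were followed in newborn mouse islets of 2 labelled genotypes, Wild-Type and Mettl3/14nKO. The 9 genes (Sst, Hhex, Rbp4, Ptprz1, Ghsr, Sstr3, Sstr2, Ghrl and Calb1) were taken by symbol, and all 9 were found, each once, among the 22564 genes of the table. Islets, the hormone-secreting clusters of the pancreas, came from 129sv mice at postnatal day 0, and their total RNA was sequenced as 2 Wild-Type and 2 Mettl3/14nKO libraries. Mettl3 and Mettl14 form the enzyme that methylates adenosines within mRNA. The labels do not say in which cells the genes were deleted, by what driver, or whether islets of several animals were pooled, so p-values measure the spread between libraries, which may be technical.

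Delta cells are the islet cells that secrete somatostatin, a peptide that restrains the release of insulin and glucagon by their neighbours through receptors coupled to inhibitory G proteins. Epsilon cells secrete ghrelin and are a feature of fetal and newborn islets that becomes rare in adults. The pair are linked, because the ghrelin receptor Ghsr is found on delta cells, where ghrelin promotes somatostatin release. Hhex is the transcription factor that delta cells need, Rbp4 is a retinol carrier, Ptprz1 is a receptor tyrosine phosphatase, Sstr2 and Sstr3 are somatostatin receptors, and Calb1 is a cytosolic calcium-binding protein.

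The libraries were shallow, with fragments in genes numbering 1216498 and 744016 in the Mettl3/14nKO pair (replicate 1, then 2, here and throughout) against 1255526 and 1617429 in the Wild-Type pair. Values are given as fragments, as CPM (fragments scaled to an equal library total, which compares libraries) and as FPKM (fragments per kilobase of transcript, which compares genes). Neither targeted gene passed the test at this depth. Mettl3 had 30 and 9 fragments in Mettl3/14nKO libraries against 20 and 47 in Wild-Type (edgeR quasi-likelihood adjusted p = 0.849), and Mettl14 had 24 and 12 against 32 and 54. In CPM, Mettl14 stood at 19.7 and 16.1 against 25.5 and 33.4, lower without overlap, as were 22.6% of all genes tested. Its fold was 0.613 (95% interval 0.377 to 0.996, unadjusted p = 0.0484 and adjusted p = 0.308 with edgeR), and its sign was negative in all 14 fits. Mettl3 overlapped in CPM and was lower without overlap in FPKM, at 6.95 and 5.86 against 8.403 and 14.5. In FPKM, 35.4% of all genes with a mean of at least 1 were likewise lower without overlap, and 9.83% were higher. The edgeR direction for Mettl3 was negative (-0.25 on the log2 scale) and turned without Mettl3/14nKO replicate 2 (0.08) and likewise without Wild-Type replicate 2 (0.26).

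The promoter of Sst is shown because Sst was by far the most abundant of the 9 transcripts and because its control by cyclic AMP through a short palindrome is textbook knowledge. Of the 13 RefSeq promoter windows of 8 of these genes (GRCm38.p6; 250 bases before the start to 50 after), those of Sst and Sstr2 hold the palindrome TGACGTCA, which reads the same on both strands. It is found in 1.79% of all 32851 promoter windows. The sequences run 5′ to 3′ on the minus strand for Sst and on the plus strand for Sstr2, and capitals mark the palindrome. It begins 48 bases before the RefSeq start of Sst and 58 bases before that of Sstr2. Gene spans given below are from GENCODE, whose starts differ. That of Sst, on the minus strand, begins at 23890958, so the palindrome and part of the printed window lie inside it.
Sst, chr16:23890845-23891094: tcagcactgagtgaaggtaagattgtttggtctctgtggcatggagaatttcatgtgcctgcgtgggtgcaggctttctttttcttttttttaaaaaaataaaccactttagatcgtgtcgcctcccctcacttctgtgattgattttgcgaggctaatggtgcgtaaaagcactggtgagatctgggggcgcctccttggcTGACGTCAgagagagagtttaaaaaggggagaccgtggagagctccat
Sstr2, chr11:113619243-113619302: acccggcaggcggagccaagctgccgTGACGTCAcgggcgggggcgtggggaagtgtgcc
A match describes the letters alone, and no binding was measured. The Sst and Sstr2 transcripts, whose promoters share these letters, are compared with the others in what follows.

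Methylation was not measured in this table, but the core letters that the Mettl3 and Mettl14 enzyme prefers, GGACT in the mRNA strand, can be counted in the longest GENCODE mRNA of each gene. Sst (721 bases) and Ghrl (891 bases) hold 0, as do 12.4% of all 21877 coding genes and 42.7% of the 2059 with an mRNA of 500 to 1000 bases. The other 7 genes hold between 1 and 7. Ghsr has 6 in 4433 bases and Sstr3 has 5 in 4275 bases, most of them in the 3′ untranslated part, whereas the 7 of Ptprz1 all lie in its coding part.

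Per length, in FPKM, the 9 transcripts differed widely in level. Sst stood between 1709 and 2671 FPKM and was the seventh to ninth most abundant transcript of each library. Rbp4 followed at 120 to 227 FPKM and Ghrl at 99.5 to 205. Their ranges overlapped, with Rbp4 above Ghrl in 3 of 4 libraries. Sstr3 stood at 15.1 to 17.8 FPKM and Hhex at 4.56 to 9.16, and neither range touched that of a neighbour in this order. The remaining 4 could not be ordered beyond their spread, with Ptprz1 at 1.53 to 2.63, Sstr2 at 0.388 to 2.19, Calb1 at 0.785 to 2.29 and Ghsr at 0.994 to 1.71 FPKM. Sst and Rbp4 were read from at least 198 fragments in each library, and the receptors Ghsr and Sstr2 from at most 14.

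**Figure D1:**
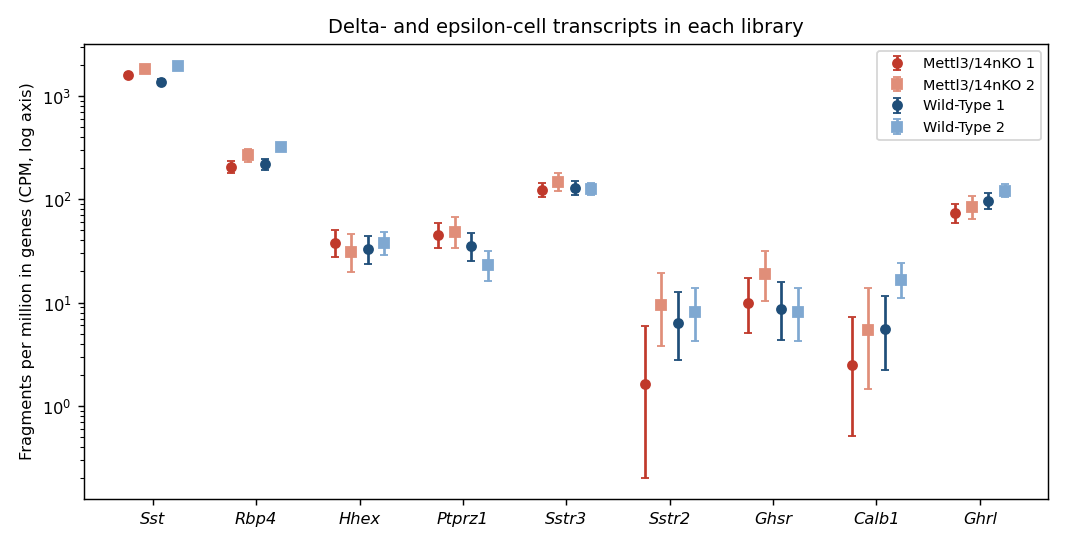
CPM of the 9 transcripts in each library on a log axis, with bars for exact 95% Poisson intervals of the fragment counts, which cover counting error only. Sst lies between 1382 and 1943 CPM with the groups interleaved, Ghrl is lower in both Mettl3/14nKO libraries, Ptprz1 is higher in both, and Sstr2, Ghsr and Calb1 rest on few fragments.

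None of the 9 transcripts passed the test between genotypes. With edgeR, 0 of the 7 that passed its filter on low counts were called at an adjusted p of 0.05 in either direction, against 3.71% of all genes tested (2.1% higher and 1.61% lower), and 2 had an unadjusted p under 0.05, a level reached by 15.9% of all genes. DESeq2 called 0 of 9 (0 unadjusted) against 0.977% of all genes (0.633% higher and 0.344% lower), and limma on log2(FPKM + 1) called 0 of 9 (1 unadjusted) against 0.0% of all genes. The median edgeR log2 fold change of the 7 was 0.04, beside 0.00 over all genes. Between the groups, CPM did not overlap for 3 of the 7 (Ptprz1 and Ghsr higher in Mettl3/14nKO, Ghrl lower), against 45.2% of all genes tested (22.6% in each direction). In FPKM, 2 of 9 were higher in Mettl3/14nKO without overlap (Ptprz1 and Ghsr; 9.83% of all genes) and 4 of 9 lower (Rbp4, Sstr3, Ghrl and Calb1; 35.4%). In bulk islet RNA, fewer cells of a type and less RNA per cell cannot be told apart.

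**Figure D2:**
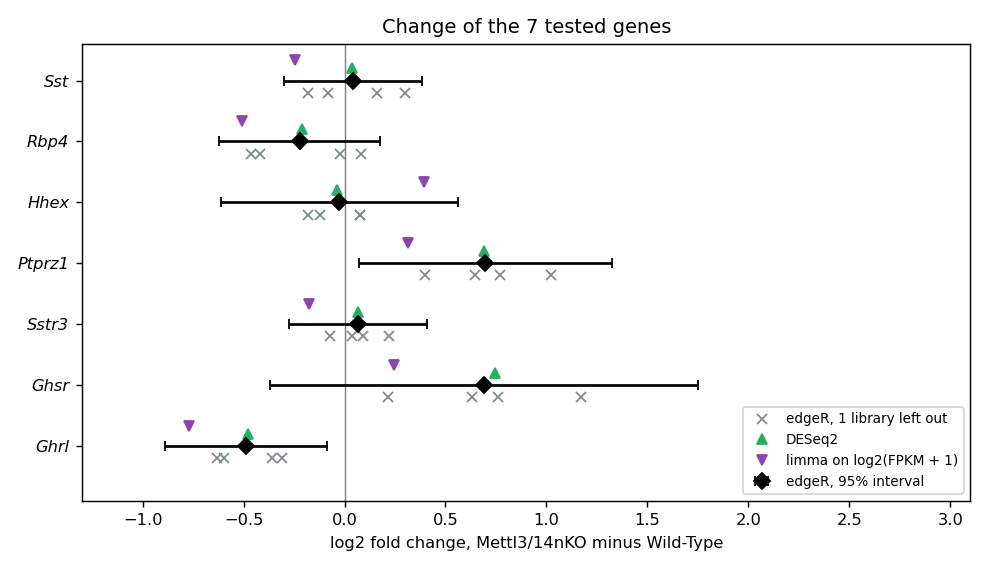
Log2 fold changes (Mettl3/14nKO minus Wild-Type) of the 7 tested genes, with edgeR's estimate and 95% interval as diamonds, fits without 1 library as crosses and DESeq2 and limma as triangles. The intervals of Sst and Sstr3 are the narrowest and include 0, Ghrl is negative and Ptprz1 and Ghsr positive in every fit drawn, and Sst, Rbp4, Hhex and Sstr3 fall on either side of 0.

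Sst (ENSMUSG00000004366, mm10 chr16:23889573-23890958), the somatostatin gene, had Mettl3/14nKO levels within the Wild-Type range. It had 1933 and 1372 fragments in Mettl3/14nKO libraries against 1735 and 3143 in Wild-Type, which is 1589 and 1844 against 1382 and 1943 CPM. The groups thus overlap. The fold change was 1.03 with a 95% interval of 0.811 to 1.30 (log2 0.04, SE 0.16, edgeR adjusted p = 0.946). The estimate had no stable sign, at -0.18 without Wild-Type replicate 1 and 0.30 without Wild-Type replicate 2, and the Wild-Type libraries differed by 0.48 in log2 CPM.

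Of 6 other islet hormone genes 5 fell and 0 rose with edgeR, which called 1.61% of all genes lower and 2.1% higher. With DESeq2 these shares were 0.344% and 0.633%, and they apply beside each later list. Over all genes, fewer passed with DESeq2 and fewer still without Wild-Type replicate 2. Without Wild-Type replicate 2, 2 fell, and DESeq2 called 2 lower, while limma on FPKM called 0 here and in every other gene list described. The sixth was Gcg, the glucagon gene, at 9951 and 12990 against 9574 and 7702 CPM (log2 0.41, adjusted p = 0.248), which passed without Mettl3/14nKO replicate 1 (0.0211) and likewise without Wild-Type replicate 1 (0.0424), and with no filter on low counts (0.00335). Ins2 stood at 18370 and 22850 CPM in Mettl3/14nKO against 38580 and 40090 (log2 -0.94, SE 0.16, edgeR adjusted p = 0.00669). Within a library, where no scaling enters, Sst had 8.65 and 8.07 fragments per 100 of Ins2 in Mettl3/14nKO libraries against 3.58 and 4.85 in Wild-Type. These groups did not overlap. Against glucagon the picture differed: Sst had 15.97 and 14.2 fragments per 100 of Gcg in Mettl3/14nKO libraries against 14.4 and 25.2 in Wild-Type, and Wild-Type replicate 2 alone stood apart. Against Ppy, the pancreatic polypeptide gene, Sst had 1522 and 1294 per 100 in Mettl3/14nKO libraries against 430 and 239 in Wild-Type, without overlap. Ppy itself fell with edgeR (log2 -2.24, SE 0.34, adjusted p = 0.00287) but did not pass with DESeq2 (adjusted p = 0.0911). Without Wild-Type replicate 2, its log2 value was -1.42. Such ratios were not tested, since an exact permutation test of 2 against 2 libraries cannot give a two-sided p below 0.333.

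**Figure D3:**
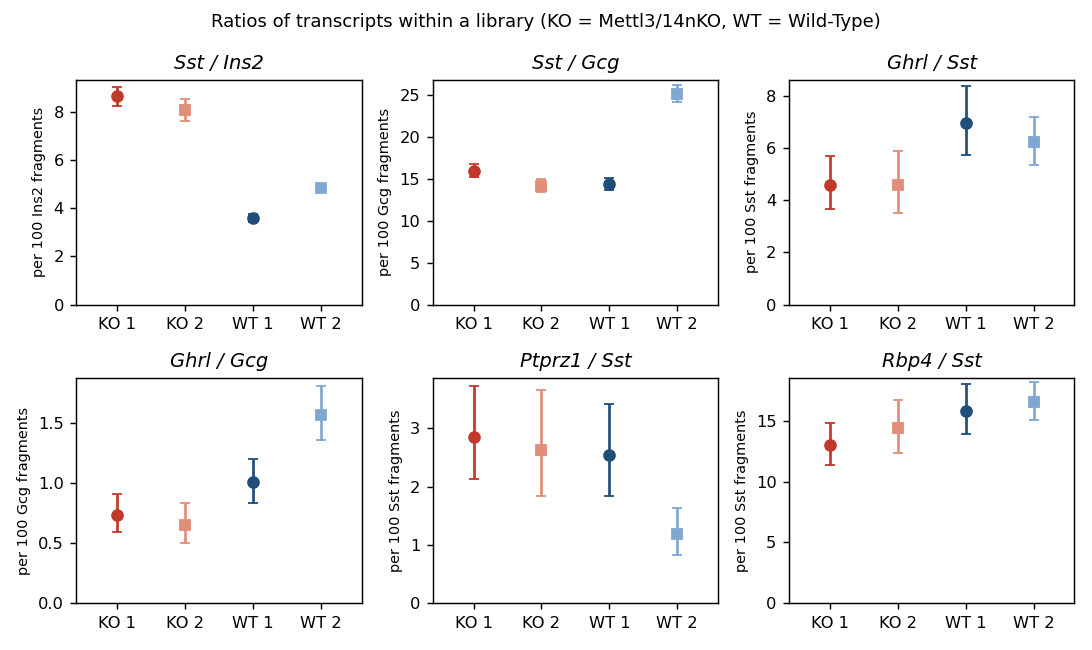
Fragments of one gene per 100 of another within each library, with exact 95% intervals for counting error, on axes that start at 0. Sst per Ins2 is higher and Ghrl per Sst and per Gcg are lower in both Mettl3/14nKO libraries, while Sst per Gcg is set apart by Wild-Type replicate 2 alone. Ptprz1 per Sst is lowest there, and Rbp4 per Sst is lower in both Mettl3/14nKO libraries.

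Ghrl (ENSMUSG00000064177, chr6:113716119-113719880), the ghrelin gene, had lower values in Mettl3/14nKO that did not pass. It had 89 and 63 fragments in Mettl3/14nKO libraries against 121 and 196 in Wild-Type, or 73.2 and 84.7 against 96.4 and 121 CPM. Both Mettl3/14nKO libraries lie below both Wild-Type libraries. An estimated fold of 0.713 had a 95% interval of 0.539 to 0.942 (log2 -0.49, SE 0.19, unadjusted p = 0.0211 and adjusted p = 0.20 with edgeR). Its sign was negative in each of the 14 fits, and the gap was smallest without Wild-Type replicate 2 (-0.31). The Ghrl locus shares 695 bases with Gm44033 and 3 bases with the antisense gene Gm26982, both on the opposite strand, and no source used here gives the strand on which fragments were counted.

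Set against Sst in the same library, Ghrl had 4.60 and 4.59 fragments per 100 of Sst in Mettl3/14nKO libraries against 6.97 and 6.24 in Wild-Type, and the values of the groups did not overlap. The exact 95% counting intervals did, reaching 5.70 and 5.91 in Mettl3/14nKO and starting at 5.75 and 5.37 in Wild-Type. The log2 fold changes of Ghrl and Sst differed by -0.53, which was not tested, and the difference stayed between -0.61 and -0.45 in all 14 fits. Per 100 Gcg fragments, Ghrl had 0.735 and 0.652 in Mettl3/14nKO libraries against 1.01 and 1.57 in Wild-Type, with the values again apart. Counting intervals reached 0.9055 in Mettl3/14nKO replicate 1 and started at 0.8345 in Wild-Type replicate 1. Per 100 Ins2 fragments the order was the other way, 0.398 and 0.371 against 0.250 and 0.302, and Ins2 itself fell.

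Rbp4 (ENSMUSG00000024990, chr19:38116629-38125281), which carries retinol in blood and is a strong delta-cell transcript, had 251 and 198 fragments in Mettl3/14nKO libraries against 275 and 521 in Wild-Type. That is 206 and 266 against 219 and 322 CPM, so the groups overlap. The fold change was 0.857 with an interval of 0.651 to 1.13 (edgeR adjusted p = 0.648), and the log2 value of -0.22 turned to 0.08 without Wild-Type replicate 2. Per 100 Sst fragments, Rbp4 had 12.98 and 14.4 in Mettl3/14nKO libraries against 15.9 and 16.6 in Wild-Type, which do not overlap. Transthyretin (Ttr), which binds Rbp4 in plasma and is made by islet cells, had 280 and 375 against 300 and 296 CPM (log2 0.12, adjusted p = 0.791). Of 4 tested genes of retinol handling 0 passed with edgeR (0 unadjusted), and without Mettl3/14nKO replicate 2, 1 rose. Hepatocytes also make Rbp4, and their 8 markers together took 5.75 and 2.69 CPM in Mettl3/14nKO libraries against 24.7 and 19.2 in Wild-Type, with Ahsg at 0 in all libraries. Their part in the Rbp4 values was not tested.

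Hhex (ENSMUSG00000024986, chr19:37434810-37440731) had 46 and 23 fragments in Mettl3/14nKO libraries against 41 and 61 in Wild-Type. In CPM these are 37.8 and 30.9 against 32.7 and 37.7, with overlapping groups. An estimated fold of 0.981 had a 95% interval of 0.653 to 1.47 (edgeR adjusted p = 0.981). On the deposited FPKM scale Hhex looked different, at 9.16 and 5.89 against 4.56 and 6.31, for a log2 change of 0.39 where the median gene stood at -0.21 (limma adjusted p = 0.642). Hhex is also a gene of endothelial cells. Of 10 tested endothelial markers 7 fell and 0 rose with edgeR, against 1.61% and 2.1% of all genes. Summed levels of these markers were 450 and 280 CPM in Mettl3/14nKO libraries against 1250 and 1047 in Wild-Type. Hhex per 100 Sst fragments was 2.38 and 1.68 against 2.36 and 1.94, again overlapping, and the part of endothelial cells in the Hhex values was not tested.

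**Figure D4:**
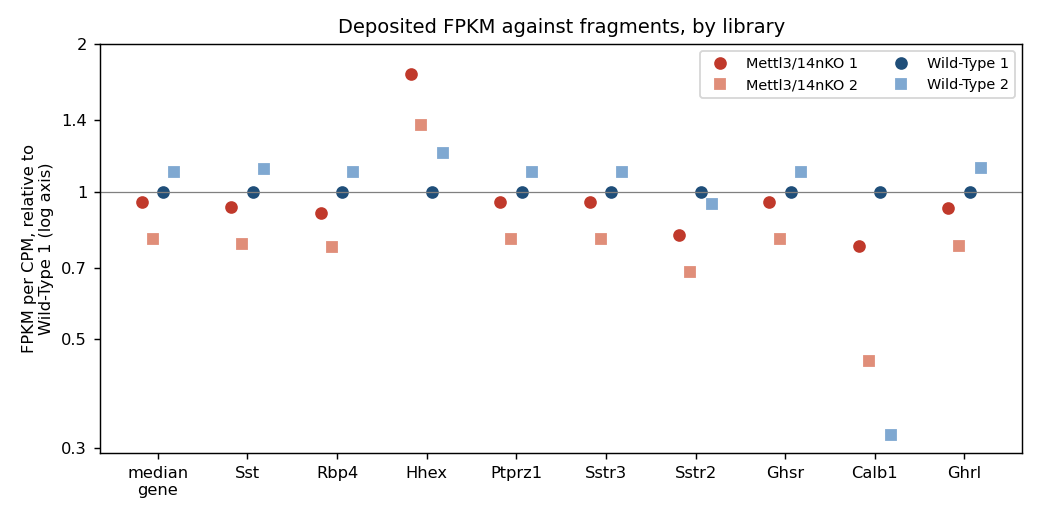
Deposited FPKM divided by CPM for each gene and library, relative to Wild-Type replicate 1, on a log axis. Sst, Rbp4, Ptprz1, Ghsr, Sstr3 and Ghrl follow the median gene (0.952 and 0.800 in Mettl3/14nKO, 1.10 in Wild-Type replicate 2), while Hhex is highest in both Mettl3/14nKO libraries (1.74 and 1.37) and Calb1 lies at 0.318 in Wild-Type replicate 2.

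The deposited FPKM scale itself differed between libraries. For the same CPM, the median gene had 0.952 and 0.800 times the FPKM of Wild-Type replicate 1 in the Mettl3/14nKO libraries and 1.10 times in Wild-Type replicate 2. Relative to the median gene, the FPKM-based log2 changes were -0.04 for Sst, 0.03 for Sstr3, -0.30 for Rbp4, -0.56 for Ghrl, 0.52 for Ptprz1, 0.45 for Ghsr and 0.60 for Hhex. Those of Sst and Sstr3 thus lay near 0 on either scale, and Hhex was the tested gene that departed most from its edgeR value of -0.03.

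The somatostatin receptors were represented mainly by Sstr3 (ENSMUSG00000044933, chr15:78537008-78544685). It had 150 and 110 fragments in Mettl3/14nKO libraries against 163 and 204 in Wild-Type, which is 123 and 148 against 130 and 126 CPM, with overlapping groups. The fold change was 1.05 with an interval of 0.825 to 1.33 (log2 0.07, SE 0.16, edgeR adjusted p = 0.904), and the sign turned without Mettl3/14nKO replicate 2 (-0.07). Sstr2 (ENSMUSG00000047904, chr11:113619342-113626028) had 2 and 7 fragments in Mettl3/14nKO libraries against 8 and 13 in Wild-Type, too few for the filter. Its summed Wild-Type to Mettl3/14nKO ratio was 1.59 with a 95% counting interval of 0.699 to 3.95, and a difference was not detectable at this depth. All 6687 bases of Sstr2 lie inside Slc39a11 on the opposite strand, so fragments of that gene could be counted with it.

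The other somatostatin receptors and the related ligand had few fragments or none. Among them, Sstr1 had 3 and 0 fragments in Mettl3/14nKO libraries against 0 and 2 in Wild-Type, Sstr4 had 0 and 0 against 0 and 2, and Sstr5 had 1 and 0 against 4 and 11. Cort, which encodes the related peptide cortistatin, was at 0 in all 4 libraries. Of the 8 tested G protein and GIRK channel genes through which these receptors act, 0 passed with edgeR (1 at an unadjusted p under 0.05), with a median log2 fold change of -0.20. Among them Gnao1, a G protein alpha subunit abundant in neural and endocrine cells, stood at 514 and 523 against 605 and 607 CPM (log2 -0.23, adjusted p = 0.372), and the beta subunit gene Gnb1 at 369 and 415 against 430 and 446 CPM (log2 -0.17, adjusted p = 0.591).

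Ghsr (ENSMUSG00000051136, chr3:27371351-27378010), the ghrelin receptor, had 12 and 14 fragments in Mettl3/14nKO libraries against 11 and 13 in Wild-Type. Scaled for depth these are 9.86 and 18.8 against 8.76 and 8.04 CPM, with both Mettl3/14nKO libraries above Wild-Type. An estimated fold of 1.62 had a 95% interval of 0.775 to 3.37 (edgeR adjusted p = 0.574), and the log2 value of 0.69 was 0.22 without Mettl3/14nKO replicate 2 and 1.17 without Mettl3/14nKO replicate 1. Of the 3 tested genes of ghrelin maturation and its receptor (Ghrl, Ghsr and Pcsk1), 1 fell with edgeR, against 1.61% of all genes. It was Pcsk1, a prohormone convertase of many islet cells (166 and 277 against 349 and 409 CPM, log2 -0.81, adjusted p = 0.0371, or 0.0529 on the deposited estimated counts rounded). Leaving out Mettl3/14nKO replicate 1 (0.204) and likewise Wild-Type replicate 2 (0.376) ended that call, and DESeq2 did not make it. Mboat4, which adds the fatty acid that makes ghrelin active, was at 0 in all 4 libraries.

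Of 9 tested genes of signals that reach delta cells, Ghsr among them, 0 passed with edgeR, and 2 had an unadjusted p under 0.05. They encode receptors for incretins, catecholamines, acetylcholine, insulin and others. Glp1r, the incretin receptor, stood at 97.0 and 98.1 against 108 and 117 CPM (adjusted p = 0.604), and the insulin receptor gene Insr at 130 and 138 against 150 and 189 CPM (adjusted p = 0.297). Crhr2, the receptor through which urocortin 3 of beta cells drives somatostatin release, had 7 and 1 fragments against 7 and 7. That gene was named after its values were seen.

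Ptprz1 (ENSMUSG00000068748, chr6:22875502-23052916) had higher values in Mettl3/14nKO that did not pass. It had 55 and 36 fragments against 44 and 37, which is 45.2 and 48.4 CPM in Mettl3/14nKO libraries against 35.1 and 22.9 in Wild-Type, and the groups did not overlap. The fold change was 1.62 with an interval of 1.05 to 2.50 (log2 0.70, SE 0.29, unadjusted p = 0.0313 and adjusted p = 0.245 with edgeR). Without Wild-Type replicate 2, the lowest library, the log2 value was 0.40. Per 100 Sst fragments, Ptprz1 had 2.85 and 2.62 in Mettl3/14nKO libraries against 2.54 and 1.18 in Wild-Type.

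Genes of Ptprz1 binding partners and relatives did not move one way. Of 7 tested, including Ptprz1, 1 rose and 2 fell with edgeR, against 2.1% and 1.61% of all genes. In that fit 6 of the 7 had an unadjusted p under 0.05, against 15.9% of all genes. Their log2 values were positive for 4 and negative for 3. Ptn, the secreted ligand pleiotrophin, rose from 16.7 and 19.2 CPM in Wild-Type to 60.01 and 33.6 (log2 1.41, adjusted p = 0.0305), a call that ended when either Mettl3/14nKO replicate 1 (0.366) or else Wild-Type replicate 2 (0.226) was removed, and with DESeq2 (0.37). Tnc, the matrix protein tenascin C, fell from 472 and 422 CPM to 224 and 187 (log2 -1.12, adjusted p = 0.00088). Cntn1, a contactin of neural cell surfaces, fell from 59.7 and 57.5 CPM to 23.8 and 20.2 (log2 -1.40, adjusted p = 0.0107), which did not pass without Wild-Type replicate 2 (0.102) or with DESeq2 (0.169). DESeq2 called 0 of the 7 higher and 1 lower. The number that rose was 2 without Mettl3/14nKO replicate 2. Mdk, also on this list, had 43.6 and 24.2 against 11.15 and 16.1 CPM (log2 1.33, adjusted p = 0.0648). Tnr, a tenascin of the nervous system, had 112 and 129 against 79.7 and 86.6 CPM (log2 0.52, adjusted p = 0.133).

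Glial cells also express Ptprz1. Of 6 tested glial and neuronal markers 2 rose, among them Cdh19 (log2 3.52, adjusted p = 0.0451), and 1 fell, the neuronal filament gene Prph (log2 -2.45, adjusted p = 0.00466), all with edgeR. With Wild-Type replicate 1 removed 1 of them rose, and with any other single library removed 0 did. Cdh19 failed when either Mettl3/14nKO replicate 1 (0.0548) or else Wild-Type replicate 2 (0.427) was removed. Without Mettl3/14nKO replicate 2 Cdh19 was not tested, and without Wild-Type replicate 1 it still passed (0.0117). DESeq2 called 0 of the list higher (Cdh19 adjusted p = 0.286) and 1 lower. Summed over its 10 genes the list took 117 and 153 CPM in Mettl3/14nKO libraries against 119 and 102 in Wild-Type, and none was at 0 in all libraries. Over all genes, edgeR called 2.1% higher and 1.61% lower, and DESeq2 0.633% and 0.344%. The part of glial and neuronal cells in the Ptprz1 values was not tested.

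Calb1 (ENSMUSG00000028222, chr4:15881264-15908064) had 3 and 4 fragments in Mettl3/14nKO libraries against 7 and 27 in Wild-Type, too few for the filter. In CPM these are 2.47 and 5.38 against 5.58 and 16.7, and the groups are separated only narrowly, with Wild-Type replicate 2 far above the rest. The summed Wild-Type to Mettl3/14nKO ratio was 3.31 with a 95% counting interval of 1.45 to 8.86, which leaves out the spread between libraries. In edgeR without a filter the log2 change was -1.66 (SE 0.65, adjusted p = 0.131). In FPKM the Wild-Type libraries were alike, 2.29 and 2.19, where the same CPM carried 0.318 times the FPKM in replicate 2.

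Other genes reported as enriched in delta cells were also measured. Of 9 tested, 0 passed with edgeR (0 unadjusted), with a median log2 fold change of 0.11. Pdx1, a transcription factor of beta and delta cells, stood at 316 and 390 against 331 and 318 CPM (log2 0.11, adjusted p = 0.795). Isl1, a pan-endocrine factor, stood at 278 and 289 against 228 and 242 CPM (log2 0.26, adjusted p = 0.345). Frzb, a secreted Wnt antagonist, stood at 105 and 142 against 113 and 126 CPM (log2 0.02, adjusted p = 0.977). On FPKM, where the median gene stood at -0.21, Pdx1 (-0.15) and Frzb (-0.29) had the opposite sign.

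Among genes tied to epsilon cells, 1 of 3 tested rose. Acsl1, which activates long-chain fatty acids and is used by many tissues, stood at 69.1 and 65.9 CPM in Mettl3/14nKO libraries against 13.5 and 20.4 in Wild-Type (log2 1.96, SE 0.28, edgeR adjusted p = 0.00236), a call kept without each library in turn. Ghrl had lower values in the same libraries that did not pass, so these 2 genes stood in opposite directions. Which cells carried the Acsl1 transcripts was not tested. Nkx2-2, whose loss in mice turns other islet cells to ghrelin production, had 233 and 218 against 245 and 253 CPM (log2 -0.14, adjusted p = 0.677). Pax4 had 0 and 0 fragments against 1 and 1, and Asgr1 had 0 and 0 against 1 and 0. Those low genes, and Mboat4, were named after their values were seen.

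Among calcium-binding relatives of Calb1, 0 of 3 tested passed with edgeR (1 unadjusted). DESeq2 and limma likewise called 0 in this list and in those of G protein signalling, delta-cell inputs, retinol handling and other delta-cell genes. Stomach and gut also make somatostatin and ghrelin, but their 10 markers together took 11.5 and 10.8 CPM in Mettl3/14nKO libraries against 10.4 and 7.42 in Wild-Type, with Gkn1, Gkn2, Tff1, Muc5ac, Cdx2 and Fabp2 at 0 in all libraries. The other lists summed to 275 to 558 CPM in Mettl3/14nKO against 43.0 to 105 in Wild-Type for leukocytes, 5727 to 8025 against 2689 to 3954 for mesenchyme, 23.0 to 60.5 against 62.9 to 69.3 for acinar cells and 531 to 539 against 545 to 556 for duct cells. With edgeR 5 of 9 leukocyte and 5 of 8 mesenchymal markers rose (2 and 1 without Wild-Type replicate 2, and 3 mesenchymal without Mettl3/14nKO replicate 1; 1 and 2 with DESeq2), 2 of 5 duct markers rose and 1 fell (1 rose without Wild-Type replicate 2 or with DESeq2), and 0 of 1 acinar marker passed (1 fell without Mettl3/14nKO replicate 2). Over all genes, edgeR called 2.1% higher and 1.61% lower, and DESeq2 0.633% and 0.344%. The part of these cell types in the values of the 9 genes was not tested.

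By pattern over the 4 libraries, the transcripts nearest to Sst among 2298 others with a mean of at least 100 CPM were Camsap1, Sepp1 and Pcx, with root mean square differences in centred log2 CPM of 0.03, 0.04 and 0.05, beside a median of 0.24. Near to Ghrl were Pgap1 and Herpud1 (0.05 and 0.06, beside a median of 0.30). With 4 libraries such likeness is common, as 633 genes lay within 0.2 of Sst and 372 within 0.2 of Ghrl.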

How the data were processed

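RNA of newborn islets was measured in 4 libraries. Per the labels, ribosomal RNA was removed and a directional kit was used. Per the submitters' processing notes, the tools were cutadapt 1.9.3, HISAT2 2.0.4, Cufflinks and Cuffdiff, and the genome build was mm10; no source used here gives the annotation release, filters or strand of counting. The authors deposited FPKM and, per the file headers, estimated counts, which hold fractions. Of those above 0, between 92.3 and 93.2% per library came out whole, to within 0.01, after division by a step of that library; all were divided by that step and rounded to fragments, and genes of 1 symbol were summed.

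The main test was edgeR 4.0.16 (quasi-likelihood, TMM, filterByExpr) in R 4.3.3 over 10956 genes, two-sided with Benjamini-Hochberg adjustment at 0.05. Adjusted p-values are edgeR's unless another tool is named. SE is the log2 fold change over the root of F. Alternatives were DESeq2 1.42.0, limma 3.58.1 with an intensity trend on log2(FPKM + 1) or (FPKM + 0.1) for a mean FPKM of at least 1 or without that filter, other scalings, no count filter, the deposited estimated counts rounded, a replicate block, and each library left out. FPKM fold changes understate low genes.

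The edgeR step was tested on simulated data. It called 54 of 100 genes changed 2-fold, 95 of 100 changed 4-fold and 25 of 10756 unchanged genes (0.23%). A 2-fold change was thus often missed. Replicates of a group differed by more than counting error (chi-square over degrees of freedom of 2.42 in Mettl3/14nKO and 2.36 in Wild-Type). Intervals of single-library counts, of ratios within a library and of summed fragments cover counting error only, while edgeR's intervals also hold the spread between libraries. The 9 genes, the 18 other lists and the tests were chosen with earlier results of these data known. Beyond the 9 genes, the rule named Mettl3, Mettl14, 4 other hormones, and in each list the genes called and up to 3 more by mean CPM, and the text names part of these; some are not reported here. Small families are given whole, and genes outside the rule (the other Sstr genes, Cort, Mboat4, Pax4, Asgr1 and Crhr2) were added after their values were seen.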

Additional observations from a re-analysis of the deposited data

How the results depend on the processing

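Counts of 0 called in either direction among the 9 genes held in all 13 alternatives. Over all genes, 230 higher and 176 lower became 469 and 388 without a filter on low counts, 92 and 50 with DESeq2 and 0 and 0 with limma on FPKM at either pseudocount or without its filter. Without 1 library the counts ranged from 44 to 390 higher and 31 to 285 lower. The difference of Ghrl and Sst ranged from -0.61 to -0.45 without 1 library. The cause of these shifts was not tested.

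Signs turned for values that did not pass. With limma on log2(FPKM + 1), filtered or not, values were -0.24 for Sst, 0.39 for Hhex, -0.17 for Sstr3, -0.29 for Frzb, -0.15 for Pdx1 and -0.15 for Ttr, and with log2(FPKM + 0.1) they were -0.24, 0.45, -0.18, -0.30, -0.15 and -0.16 (all genes: median -0.21 and -0.24). Leaving out 1 library at a time, values ranged from -0.18 to 0.30 for Sst, -0.18 to 0.079 for Hhex, -0.46 to 0.084 for Rbp4, -0.071 to 0.22 for Sstr3, -2.10 to 0.38 for Sstr2, -0.91 to 0.26 for Mettl3, -0.20 to 0.26 for Frzb, -0.058 to 0.27 for Pdx1 and -0.11 to 0.34 for Ttr.

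Same-numbered libraries deviated together with a correlation of 0.02 over all genes tested. That value cannot show whether they were handled as pairs, and the question was not settled here. With a replicate block 215 genes were higher and 166 lower, 0 of the 9 genes passed, Sst stood at 0.06 and Ghrl at -0.46, the Ghrl to Sst difference was -0.52, and Ins1 (adjusted p = 0.0519) and Cdh19 (0.0661) did not pass. Depth limits Sstr2, Ghsr and Calb1 most, each with 27 or fewer fragments in any library.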
